A study of Homo sapiens and Mus musculus with 213 samples.

Results

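G-quadruplexes (G4s) are 4-stranded structures that G-rich DNA or RNA can fold into, and R-loops are RNA-DNA hybrids that leave the other DNA strand single. The 9 genes described here encode helicases and a remodeller that unfold or clear these structures: DHX36, DHX9, DDX5, BLM, WRN, BRIP1, PIF1, DNA2 and ATRX. They were chosen by function and by symbol, and each matched a single identifier among the 58336 genes listed for the RNA-seq libraries. All 9 passed the minimum mean of 10 normalized counts and were among the 20884 genes tested.

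The study edited the G4 motif upstream of MYC in HEK293T cells, an immortalized line from human embryonic kidney, and sequenced polyadenylated RNA of 3 lines with 3 libraries each. MYC WT cells are the unedited HEK293T line with the natural motif. MYC MUT cells carry point mutations in the G-runs so that the motif does not fold. SWP cells carry a different G4-forming sequence in place of the natural one. Both edited lines were grown from single sorted cells and selected as homozygous clones. The labels do not say whether the libraries of an edited line came from one clone, so the edit and clonal differences cannot be told apart. The other assays of the series were not analysed here.

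Helicases of this group act by different routes. DEAH-box and DEAD-box enzymes such as DHX36, DHX9 and DDX5 work mainly on RNA and also open DNA G4s or RNA-DNA hybrids. The RecQ helicases BLM and WRN, the iron-sulphur helicase BRIP1, and PIF1 and DNA2 act on DNA during replication and repair, where a folded G4 can stall a fork. ATRX is a chromatin remodeller that, with its partner DAXX, places histone H3.3 at G-rich repeats and telomeres. DDX5 is known for unfolding the MYC promoter G4 itself.

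The libraries held 65024354 to 98497026 reads assigned to genes, and the deposited values are these counts divided by 1 size factor per library. The reads of a single member ranged from 568 for PIF1 to 64061 for DDX5 in a library. MYC had a mean normalized count of 23332 ± 4454 (SD, n = 3) in MYC WT, 11423 ± 880 in MYC MUT and 21489 ± 6075 in SWP, which put MYC MUT at -1.02 from MYC WT in log2 units (limma adjusted p = 0.00182) and SWP at -0.15 (adjusted p = 0.712). All 7 markers of HEK293T had a mean of at least 10, and the summed level of these markers in a library ran from 77390 to 88869 in MYC WT, from 80601 to 92105 in MYC MUT and from 68522 to 77525 in SWP. Most of this sum was VIM, and single markers were called in both directions, such as NEFL (1.07) and NEFM (-0.58) in MYC MUT and INA (1.44) and KRT8 (-1.27) in SWP, as log2 fold changes against MYC WT. Of 10 markers of other cell types, 8 had a mean under 10. The summed level of these 10 in a library, nearly all of it COL1A1, was 1114 to 1293 in MYC WT, 1943 to 2058 in MYC MUT and 791 to 1207 in SWP. The part of these markers in the results was not tested. The libraries numbered 1 of MYC WT and SWP stood apart from the others of their lines, with a chi-square per degree of freedom of 42 to 60.4 against the other 2 libraries of their line, compared with 26.7 and 13.2 between those 2, and helicase results that change their side of the test without them are given both ways. The header names of the MYC WT values carry a code with the letters SLX, and those of the edited lines do not. What the code stands for is not stated, so any difference that it marks and the edit cannot be told apart. In these bulk samples, fewer cells of a type and less RNA per cell cannot be told apart either.

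Differences between lines among the 9 helicases were small. ATRX was lower in MYC MUT than in MYC WT, at 75.0% of its mean, DNA2 was lower at 81.8%, and BRIP1 was higher at 119%. These 3 passed an adjusted p under 0.05 in limma, but none of the 9 members also passed the log2 fold change of 0.5 that a call required, where 21.4% of all tested genes did. In SWP against MYC WT, none was called (5.13% of all tested genes). Between the edited lines, where 20.6% of tested genes were called, ATRX alone among the members was called, lower in MYC MUT than in SWP. BRIP1 moved the other way there, with an adjusted p under 0.05 but a fold within the limit. In MYC MUT against MYC WT, DHX36 and WRN differed least.

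**Figure D1:**
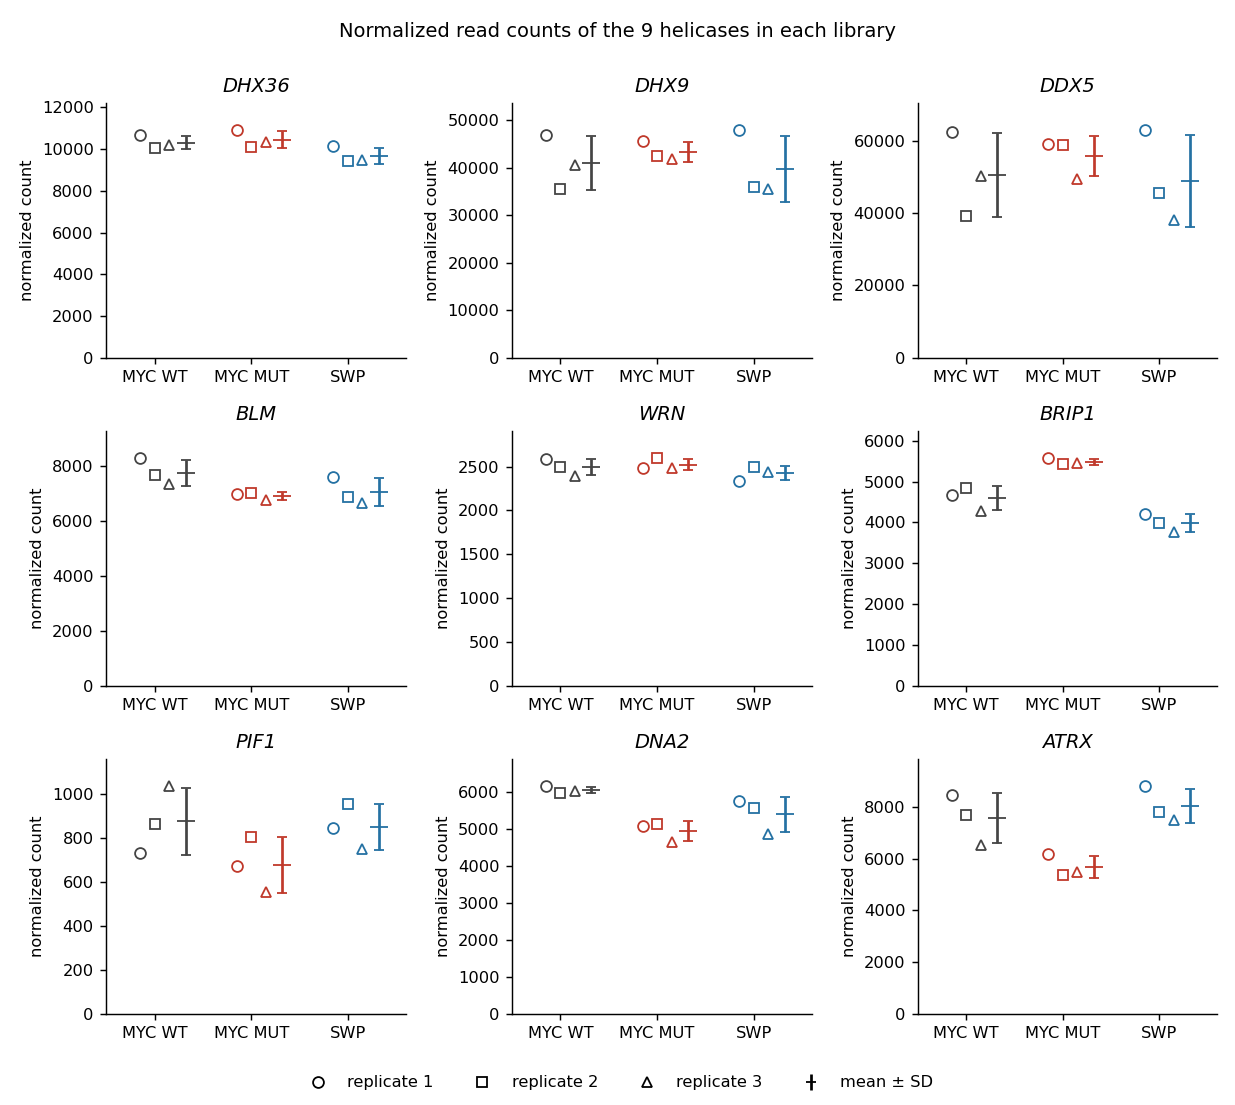
Normalized read count (y axis, from 0) of each of the 9 helicases in the 3 libraries of MYC WT, MYC MUT and SWP (x axis), with 1 symbol per replicate number and the mean ± SD of each line beside them. The MYC MUT points of ATRX (5374 to 6171) lie below all points of the other lines, those of BRIP1 (5433 to 5565) lie above them, and DDX5 and DHX9 spread widely within MYC WT and SWP.

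Promoter windows of 3 members hold a G4-type motif of their own, and these are shown because the study's edit removes such a motif at MYC. The motif searched was 4 runs of at least GGG separated by 1 to 7 bases, on either strand, in the 300 bases around a RefSeq start site (250 before it and 50 after, GRCh38.p14). Of the 9 members, 6 had an entry, with 8 windows in all. ATRX, DNA2 and WRN had none. The motif was found in 3 of these 8 windows (37.5%), 1 each for DHX9, DDX5 and BRIP1, and in 25.0% of all 35116 windows. CACGTG, the E-box letters that MYC with its partner MAX is known to bind, reads the same on both strands and was found in 1 of the 8 windows (12.5%), for DDX5, and in 7.26% of all windows. DDX5 alone has 3 windows. Its G4-type match lies in the window furthest downstream and its CACGTG in the one furthest upstream. The window between them holds neither motif and is not printed. In the sequences below, written 5' to 3' on the gene's strand, capitals mark a match of either motif.
BRIP1, chr17:61863479-61863778, minus strand: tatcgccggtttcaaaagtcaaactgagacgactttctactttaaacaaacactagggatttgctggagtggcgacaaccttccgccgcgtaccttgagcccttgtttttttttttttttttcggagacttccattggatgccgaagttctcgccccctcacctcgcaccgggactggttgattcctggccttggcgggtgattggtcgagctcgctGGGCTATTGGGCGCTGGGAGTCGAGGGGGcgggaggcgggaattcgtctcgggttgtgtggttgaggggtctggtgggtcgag
DHX9, chr1:182839097-182839396, plus strand: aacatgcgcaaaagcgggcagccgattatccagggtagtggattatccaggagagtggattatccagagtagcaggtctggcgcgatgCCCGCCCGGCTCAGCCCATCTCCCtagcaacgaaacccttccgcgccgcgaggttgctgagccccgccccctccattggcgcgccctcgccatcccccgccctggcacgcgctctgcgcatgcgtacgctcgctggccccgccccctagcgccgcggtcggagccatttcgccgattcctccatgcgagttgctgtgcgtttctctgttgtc
DDX5, chr17:64505888-64506187, minus strand: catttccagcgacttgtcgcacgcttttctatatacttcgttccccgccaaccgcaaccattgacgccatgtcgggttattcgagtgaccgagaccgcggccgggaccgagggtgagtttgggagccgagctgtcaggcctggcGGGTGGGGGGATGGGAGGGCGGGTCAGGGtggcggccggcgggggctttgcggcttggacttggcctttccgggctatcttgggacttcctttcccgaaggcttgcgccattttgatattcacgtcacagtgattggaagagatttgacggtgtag
DDX5, another start site, chr17:64506589-64506888, minus strand: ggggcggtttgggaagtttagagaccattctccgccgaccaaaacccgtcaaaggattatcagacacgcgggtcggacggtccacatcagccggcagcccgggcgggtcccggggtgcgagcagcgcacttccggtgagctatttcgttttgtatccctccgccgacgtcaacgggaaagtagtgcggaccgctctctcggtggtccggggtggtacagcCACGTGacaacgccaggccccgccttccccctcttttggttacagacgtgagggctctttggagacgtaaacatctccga
The match of BRIP1 and that of DDX5 lie on the strand of the gene, and the match of DHX9 on the opposite strand, where it reads as runs of C. A match is a description of letters, and folding was not measured in these values.

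Levels between genes are compared per length, as normalized counts per kb of merged exon, where merging counts every annotated isoform and so lowers genes with long rare exons. In MYC WT the order ran from DHX9 (6940 ± 968 normalized counts per kb, SD, n = 3) and DDX5 (5435 ± 1251) through DNA2 (1228 ± 18.0), BLM (983 ± 60.0) and DHX36 (977 ± 29.6) to ATRX (333 ± 42.8), WRN (304 ± 11.7), BRIP1 (234 ± 15.1) and PIF1 (188 ± 32.8). The ranges over libraries of DHX9 and DDX5 overlapped, as did those of BLM and DHX36, of ATRX and WRN, and of BRIP1 and PIF1. Such ranges do not compare genes within a library, and the order of these neighbours was not tested. DHX9 was above DDX5 in replicate 1 of MYC WT, the highest of both (7941 against 6703). It was also above DDX5 in replicate 2, the lowest of both (6010 against 4202). The RNA helicases DHX9 and DDX5 were thus the most abundant members per length in each line. In SWP the order was the same except that DHX36 (917 ± 38.3) came just above BLM (892 ± 64.4) with overlapping libraries. In MYC MUT, ATRX (249 ± 19.2) stood below both WRN (307 ± 7.47) and BRIP1 (279 ± 3.75), and the libraries of these 3 genes did not overlap.

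**Figure D2:**
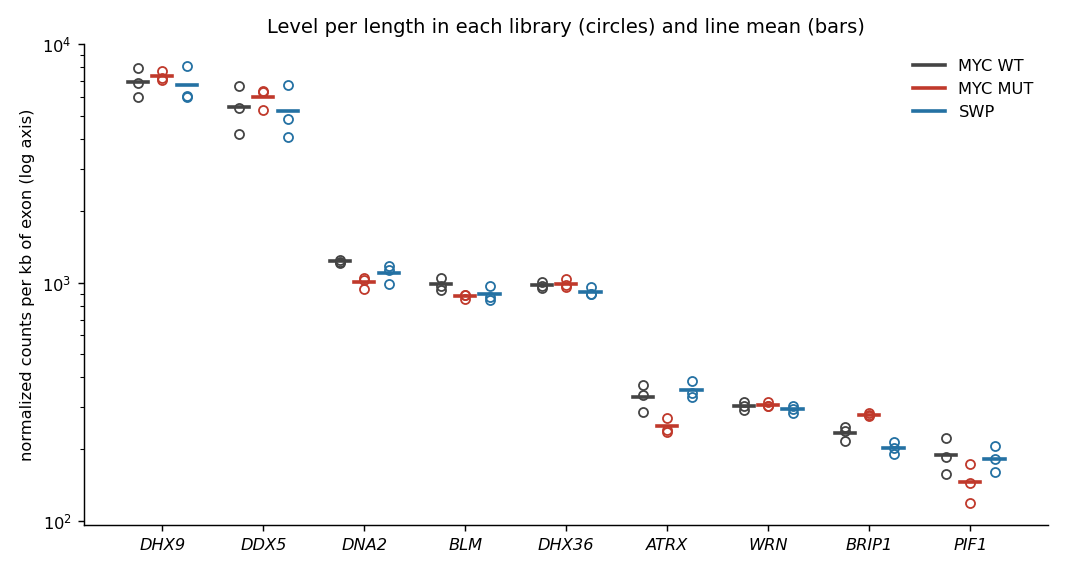
Normalized counts per kb of merged exon (y axis, log scale) of each helicase (x axis, ordered by the mean in MYC WT), with circles for libraries and bars for the mean of each line (n = 3). ATRX ranks above WRN and BRIP1 in MYC WT and SWP (333 and 353 per kb) and below them in MYC MUT (249 per kb).

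ATRX (X:77504880-77786233, minus strand, hg38) had normalized counts of 8472, 7679 and 6536 in MYC WT, 6171, 5374 and 5465 in MYC MUT and 8794, 7814 and 7506 in SWP. Every MYC MUT library was below every library of the other lines, while those of MYC WT and SWP overlapped. The log2 fold change was -0.41 ± 0.10 (SE) in MYC MUT against MYC WT (limma adjusted p = 0.00811) and 0.09 ± 0.10 in SWP against MYC WT (adjusted p = 0.643). The difference between the edited lines was -0.50 ± 0.10 (adjusted p = 0.00250), with a 95% interval of -0.72 to -0.28. ATRX was the only member called in any comparison of all 9 libraries. That call stood at the fold threshold: it was lost without MYC MUT replicate 2 (-0.47), without MYC MUT replicate 3 (-0.48), without SWP replicate 1 (-0.44), and with libraries scaled to equal totals (-0.48) or equal upper quartiles (-0.50), although the adjusted p stayed at or under 0.0146 in all 21 alternatives. Against MYC WT, leaving out MYC WT replicate 3 moved the difference to -0.51, past the threshold. The exact two-sided permutation test gave p = 0.1 for MYC MUT against either line, the smallest that 3 against 3 libraries allow.

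BRIP1 (17:61679139-61863559, minus strand), also known as FANCJ, is a partner of BRCA1 and is known for opening G4s ahead of the replication fork. Its normalized counts were 4666, 4851 and 4270 in MYC WT, 5565, 5433 and 5442 in MYC MUT and 4202, 3991 and 3761 in SWP. The 3 lines did not overlap in either direction, with MYC MUT highest and SWP lowest. The gap between SWP and MYC WT was narrow (4202 against 4270), and these counts are scaled by a size factor per library. Over all tested genes, the median log2 fold change in SWP against MYC WT was -0.06 with the deposited scaling and -0.0080 with DESeq2 on recovered reads. What the scaling contributes to the BRIP1 difference was not tested. The log2 fold change in MYC MUT against MYC WT was 0.26 ± 0.07 (SE, limma adjusted p = 0.0136). It was -0.21 ± 0.07 in SWP against MYC WT (adjusted p = 0.0923, and 0.0244 with the replicate number as a block), with a 95% interval of -0.36 to -0.05. Between the edited lines the difference was 0.46 ± 0.07 (adjusted p = 0.000398), and the adjusted p stayed under 0.05 in all 21 alternatives. Without SWP replicate 1 it reached 0.50, just past the fold threshold. Against MYC WT the adjusted p rose to 0.0529 when MYC WT replicate 3 was left out, and likewise without MYC MUT replicate 1.

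Reads of ATRX and BRIP1 moved apart within each library, which needs no scaling between libraries. The ratio of ATRX reads to BRIP1 reads was 1.82, 1.58 and 1.53 in MYC WT, 1.11, 0.989 and 1.00 in MYC MUT, and 2.09, 1.96 and 2.00 in SWP. The 3 lines did not overlap in this ratio, which averaged 1.64 ± 0.152 (SD, n = 3) in MYC WT, 1.03 ± 0.0653 in MYC MUT and 2.02 ± 0.0695 in SWP. The pair was chosen after its values were seen, so the ratio is a description without a test.

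**Figure D3:**
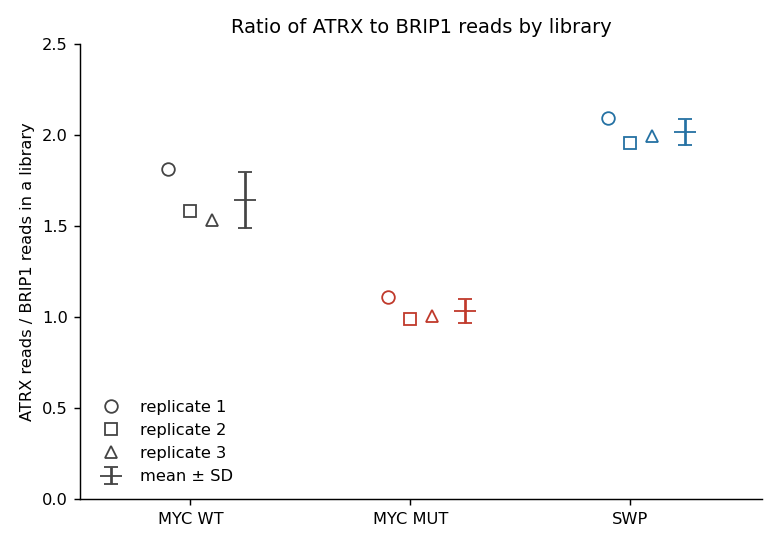
Ratio of ATRX reads to BRIP1 reads (y axis, from 0) in each library of MYC WT, MYC MUT and SWP (x axis), with the mean ± SD of each line (n = 3). The 3 MYC MUT libraries sit between 0.989 and 1.11, below the MYC WT libraries (1.53 to 1.82), and the SWP libraries sit highest (1.96 to 2.09).

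DNA2 (10:68414064-68472121, minus strand) is a nuclease and helicase that trims flaps during lagging-strand synthesis and resects broken ends. Its normalized counts were 6145, 5973 and 6023 in MYC WT, 5066, 5127 and 4638 in MYC MUT and 5758, 5567 and 4853 in SWP. MYC WT libraries were above all libraries of both edited lines, and the edited lines overlapped each other. The log2 fold change was -0.29 ± 0.08 (SE) in MYC MUT (limma adjusted p = 0.0107) and -0.17 ± 0.08 in SWP (adjusted p = 0.202, 95% interval -0.34 to -0.00244), both against MYC WT. The difference between the edited lines was -0.12, with a 95% interval of -0.29 to 0.04. Without MYC MUT replicate 3, the adjusted p in MYC MUT against MYC WT rose to 0.0528 with a difference of -0.25. The processed pseudogene RPL26P29 lies inside DNA2 on the other strand, with a mean normalized count of 66.4, 1.22% of that of DNA2.

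PIF1, a helicase known for G4 unwinding and for removing telomerase from telomeres, was the least abundant member and varied most among the DNA helicases. Its normalized counts were 730, 864 and 1035 in MYC WT, 672, 805 and 553 in MYC MUT and 847, 957 and 748 in SWP. The lines overlapped, with MYC MUT at 77.2% of the MYC WT mean. The log2 fold change was -0.37 ± 0.16 (SE) in MYC MUT, which did not pass the test (limma adjusted p = 0.0849, 95% interval -0.72 to -0.02). It was called without MYC MUT replicate 2 (-0.51, adjusted p = 0.0414). The adjusted p was also under 0.05 with the replicate number as a block (0.0384), without MYC WT replicate 1 (0.0290) and without the libraries numbered 1 of both MYC WT and SWP (0.0105), the last 2 at a difference of -0.50, just within the fold threshold. In SWP the difference from MYC WT was -0.04, with a 95% interval of -0.39 to 0.31.

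The RecQ helicases BLM and WRN, whose loss causes Bloom and Werner syndromes, kept within narrow ranges. BLM had normalized counts of 8259, 7646 and 7330 in MYC WT, 6971, 6988 and 6730 in MYC MUT and 7597, 6854 and 6628 in SWP. The MYC MUT libraries of BLM were below those of MYC WT without overlap, but the difference of -0.17 ± 0.07 (SE) on the log2 scale did not pass the test (limma adjusted p = 0.0880), nor did that of -0.14 ± 0.07 in SWP (adjusted p = 0.263). WRN ranged from 2337 to 2594 normalized counts over all 9 libraries, and every pair of lines overlapped. Its log2 fold change was 0.02 in MYC MUT (95% interval -0.13 to 0.16) and -0.04 in SWP (95% interval -0.19 to 0.10).

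DHX36, which unfolds G4s of both DNA and RNA, also kept within a narrow range. Its normalized counts ran from 10064 to 10659 in MYC WT, from 10109 to 10900 in MYC MUT and from 9410 to 10138 in SWP. The lines overlapped, and the log2 fold change was 0.02 in MYC MUT (limma adjusted p = 0.831, 95% interval -0.12 to 0.15) and -0.09 in SWP (adjusted p = 0.412, 95% interval -0.23 to 0.04).

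DDX5 and DHX9 varied more between the libraries of MYC WT and between those of SWP than between the means of the lines. DDX5 had normalized counts of 62413, 39129 and 50281 in MYC WT, 59217, 58879 and 49474 in MYC MUT and 62848, 45437 and 38034 in SWP. Its coefficient of variation was 23.0% in MYC WT and 26.1% in SWP, against 9.90% in MYC MUT. DHX9, which unwinds RNA-DNA hybrids as well as G4s, had counts of 46839, 35446 and 40519 in MYC WT, 45705, 42594 and 41806 in MYC MUT and 47890, 35944 and 35460 in SWP. Both genes were highest in the library numbered 1 of each line. In SWP that library held 1.51 times the mean of the other 2 libraries for DDX5 and 1.34 times for DHX9, and in MYC WT 1.40 and 1.23 times. DDX17, the close paralog of DDX5 named here after its values were seen, had 57960, 35418 and 37858 in MYC WT and 63347, 38555 and 30513 in SWP, again highest in the library numbered 1.

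The log2 fold change in MYC MUT against MYC WT was 0.16 ± 0.19 (SE) for DDX5 (limma adjusted p = 0.525, 95% interval -0.25 to 0.58) and 0.09 ± 0.12 for DHX9 (adjusted p = 0.594, 95% interval -0.18 to 0.36). With the libraries numbered 1 of MYC WT and SWP both left out, these became 0.33 (adjusted p = 0.0243) for DDX5 and 0.19 (adjusted p = 0.0417) for DHX9, still under the fold threshold. In MYC MUT against SWP the differences were 0.22 for DDX5 (adjusted p = 0.380) and 0.14 for DHX9 (adjusted p = 0.409), and without those libraries 0.42 (adjusted p = 0.00611) and 0.28 (adjusted p = 0.00609). In SWP against MYC WT the differences were -0.06 for DDX5 (95% interval -0.47 to 0.35) and -0.05 for DHX9 (95% interval -0.32 to 0.23). The intervals of DDX5 were the widest of the 9. CEP95 overlaps DDX5 on the other strand and had 5.34% of its mean normalized count, and how strand entered the counting is not given in the sources used here.

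**Figure D4:**
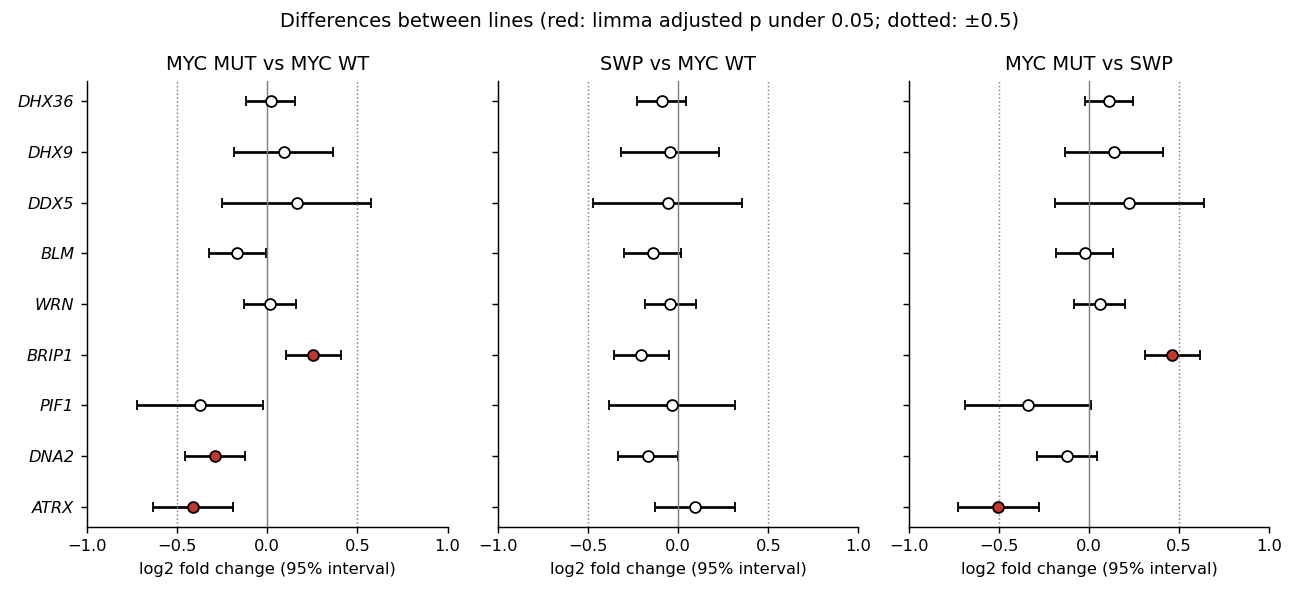
Log2 fold change with its 95% interval (x axis) of each helicase (y axis) in MYC MUT against MYC WT, SWP against MYC WT and MYC MUT against SWP, red where the limma adjusted p was under 0.05 and with dotted lines at the fold threshold of 0.5. ATRX (-0.41 and -0.50) and BRIP1 (0.26 and 0.46) are red in both comparisons with MYC MUT and DNA2 (-0.29) in the first, while SWP against MYC WT has none. The comparisons share libraries.

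Over the 9 members, the count of calls against MYC WT was thus 0 in MYC MUT and 0 in SWP by limma, and also 0 by edgeR and by DESeq2 on the recovered reads. At an unadjusted p under 0.05, limma passed 5 members in MYC MUT, where 47.6% of all tested genes passed, and 2 in SWP, where 23.9% did. At an adjusted p under 0.05 with no fold threshold, 3 passed in MYC MUT (38.4% of all genes) and 0 in SWP (9.97%), and with the replicate number as a block 5 passed in MYC MUT (BLM at 0.0209 and PIF1 at 0.0384 besides) and 1 in SWP (BRIP1). Between the edited lines 2 passed (38.0%). Without the libraries numbered 1 of MYC WT and SWP, these counts were 6, 0 and 4. Calls over all tested genes also rose in these settings. They went from 4476, 1072 and 4309 to 4970, 1464 and 4773 with the block. Without those libraries they were 5434, 1383 and 5137. The share of all genes at the adjusted p alone is not given for these settings. The libraries of MYC MUT and MYC WT did not overlap for 4 members (52.3% of all genes), those of SWP and MYC WT for 2 (24.6%) and those of MYC MUT and SWP for 2 (52.3%). The median log2 fold change of the members was 0.02 in MYC MUT and -0.06 in SWP, beside -0.00338 and -0.06 over all tested genes, and the median size without sign was 0.17 and 0.09, beside 0.27 and 0.15. These shares in the fit of all 9 libraries without the block are near or under those of all genes, and both comparisons use the same MYC WT libraries.

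The values of genes nearby on the chromosome were set beside those of the 3 members that passed the adjusted p. In MYC MUT against MYC WT, the 51 tested genes within 5 Mb of ATRX had a median log2 fold change of -0.30 (quartiles -0.54 and 0.10), and 39.2% of them were below ATRX. The 85 genes near DNA2 had a median of -0.22, with 41.2% below DNA2. ATRX and DNA2 were inside the quartiles of their neighbourhoods in this comparison. In MYC MUT against SWP, where ATRX was called, it stood at -0.50 below the lower quartile of its neighbours (median -0.18, lower quartile -0.37), with 17.6% of them below it. The 121 genes near BRIP1 had a median of -0.09, and 81.0% of them were below BRIP1, which stood above the upper quartile of 0.16. In SWP the same neighbourhoods had medians of -0.06, -0.05 and -0.18. What these regional values contribute to the results was not tested.

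The pathway was extended with 3 lists of genes of known role. Of 11 other helicases reported to act on G4s, 3 were called lower in MYC MUT than in MYC WT and 0 higher (10.1% and 11.3% of all tested genes), with a list median of -0.01. RECQL4, a RecQ helicase of replication initiation, had 6571, 7432 and 7978 normalized counts in MYC WT and 4407, 4727 and 4302 in MYC MUT, which is a difference of -0.71 on the log2 scale (limma adjusted p = 4.52e-05). It lies on the same chromosome as MYC, and the 102 tested genes within 5 Mb of it had a median of -0.39. ERCC2, the XPD helicase of transcription factor TFIIH, fell by 0.62 on the log2 scale (adjusted p = 7.03e-05), and DDX21, a nucleolar helicase of ribosomal RNA synthesis that also opens RNA G4s and R-loops, fell by 0.58 (adjusted p = 0.000729). DDX21 was at -0.50, within the threshold, without MYC WT replicate 1, alone or together with SWP replicate 1. In MYC MUT against MYC WT, genes within 5 Mb had a median of -0.23 near ERCC2 and -0.25 near DDX21. Within 10 Mb these medians were -0.03 and -0.26. ERCC2 and DDX21 stood below the lower quartiles of their neighbours within 5 Mb (-0.49 and -0.52). In SWP against MYC WT none of the 11 was called by limma, with 2 at an unadjusted p under 0.05, and 0 by edgeR and by DESeq2. Against SWP, MYC MUT was lower in RECQL4 (-0.69, adjusted p = 4.43e-05).

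Of 15 genes that prevent or remove R-loops, 1 was called higher and 1 lower in MYC MUT against MYC WT (11.3% and 10.1% of all tested genes). The list median was -0.00711. RNASEH2C, a structural subunit of the RNase H2 complex that cuts RNA in hybrids, rose in both edited lines, from 7656, 6101 and 7787 normalized counts in MYC WT to 13393, 13137 and 13289 in MYC MUT and 11398, 9122 and 10041 in SWP. The log2 fold changes were 0.89 (limma adjusted p = 6.6e-05) and 0.51 (adjusted p = 0.00958). The call in SWP was lost without MYC WT replicate 2 (0.39), without SWP replicate 1 (0.42) and without both libraries numbered 1 (0.47). THOC2, a subunit of the THO complex that packages nascent RNA, had 20395, 20017 and 18715 in MYC WT and 12167, 11916 and 10978 in MYC MUT. It fell by 0.75 on the log2 scale against MYC WT (adjusted p = 2.47e-05) and by 0.57 against SWP (adjusted p = 0.000141). The genes within 5 Mb of THOC2 had medians of -0.28 and -0.12 in these comparisons.

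Of 15 genes for partner proteins of the members, 14 were tested, and 1 was called higher and 0 lower in MYC MUT against MYC WT. FEN1, the flap nuclease that works beside DNA2, rose in both edited lines, by 0.58 (limma adjusted p = 0.00206) and 0.51 (adjusted p = 0.0151), from 15334, 11207 and 12332 normalized counts in MYC WT to 19252, 19320 and 19078 in MYC MUT and 20955, 16727 and 17486 in SWP. Without MYC WT replicate 2 these were 0.48 and 0.41, within the threshold. The call in SWP was also lost without MYC WT replicate 3 (0.48) and without SWP replicate 1 (0.41), and was kept in 16 of 21 alternatives. FEN1 and RNASEH2C lie on chromosome 11, where the genes within 5 Mb had medians of 0.25 and 0.29 in SWP against MYC WT. Between the edited lines, TOP3A, the topoisomerase that works with BLM, was 0.61 higher in MYC MUT than in SWP (adjusted p = 7.03e-05), and H3-3A, which encodes the histone that ATRX and DAXX deposit, was at -0.56 in the same comparison (adjusted p = 0.000374), a gene with processed pseudogenes whose reads the counting could split. Genes within 5 Mb of TOP3A had a median of 0.38 in that comparison, and those near H3-3A one of -0.09. DAXX itself, named after its values were seen, was at 0.11 (adjusted p = 0.386) in MYC MUT and -0.09 (adjusted p = 0.640) in SWP.

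**Figure D5:**
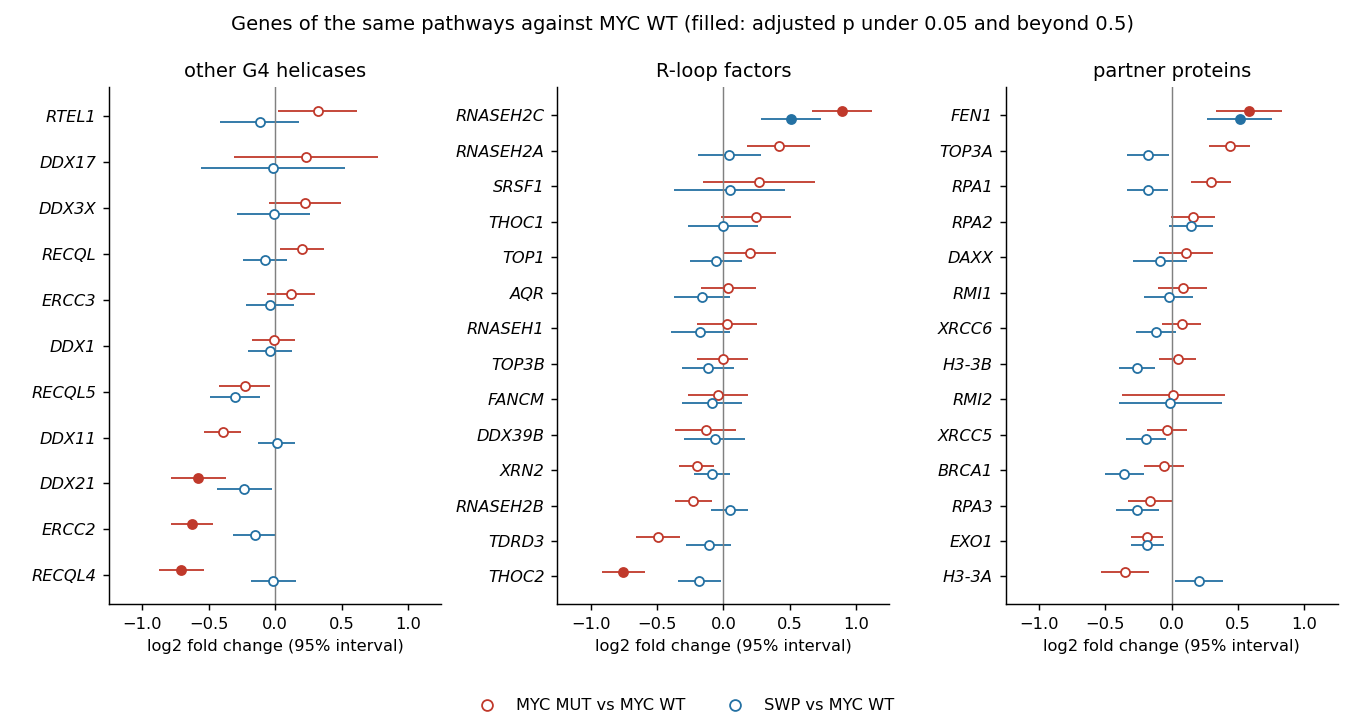
Log2 fold change with its 95% interval (x axis) of genes of the 3 lists (y axis) in MYC MUT (red) and SWP (blue) against MYC WT, filled where called. Filled points are RECQL4, ERCC2, DDX21 and THOC2 (-0.58 to -0.75) and RNASEH2C and FEN1 (0.89 and 0.58) in MYC MUT, and RNASEH2C and FEN1 (both 0.51) in SWP.

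The genes whose values over the 9 libraries were most like those of ATRX, BRIP1 and DNA2 were found by the root mean square difference of centred log2 values among 16867 other genes with a mean of at least 50, after the values of these members were seen. For ATRX the nearest was ZDHHC20P4, a pseudogene, at 0.04, then DDHD1 at 0.05 on the log2 scale. For BRIP1 they were MAP9 at 0.03 and PRKAR1A at 0.04, and for DNA2 ANKRD26 and CCZ1, both at 0.04. PRKAR1A and BRIP1 lie on chromosome 17 and ANKRD26 and DNA2 on chromosome 10, and the other pairs are on different chromosomes.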

How the data were processed

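RNA-seq of MYC WT, MYC MUT and SWP cells, 3 libraries each, was analysed. Per the study's methods, polyadenylated RNA was made into directional libraries, reads were aligned to hg38 with bwa mem (BWA 0.7.17-r2188 in the submitters' processing notes), duplicates were handled with Picard and reads were counted on GENCODE genes. The counting tool and its use of strand are not given in the sources used here. bwa mem does not split reads at introns. The authors deposited each gene's read count divided by a DESeq2 size factor, a normalized signal from which whole reads were recovered for 100% of values (tolerance 0.001).

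Members and gene lists were chosen with earlier results of these data known. All lines were fitted together by limma (version 3.58.1, R 4.3.3), with moderated variances that follow mean expression, after adding 1 to each value and taking log2. This scale understates changes of low genes. P-values were adjusted by Benjamini-Hochberg across genes averaging 10 or more. Genes were called where the adjusted p fell under 0.05 while the log2 fold change lay beyond 0.5. P-values measure the spread between these libraries. Each member also had an exact two-sided permutation test.

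Genes named were the 9 members, MYC, the called genes of each list (at most 4 per list) and, for members called against MYC WT, the 2 most similar genes. No member was so called, and the similar genes given were chosen later. Positions are from GENCODE release 44, which matched 20743 of the tested identifiers. Promoter windows are from RefSeq. Some listed genes are not reported here by name.

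The replicate numbers were checked for pairing by the correlation of deviations from the line means. Same-numbered libraries of MYC WT and SWP correlated at 0.555, 0.403 and 0.102, but MYC WT replicate 3 correlated better with SWP replicate 2 (0.166). Those of MYC MUT and SWP correlated at 0.333, 0.241 and 0.232, so only these 2 lines were read as paired. Alternatives were other pseudocounts, filters, scalings and fold thresholds, fits without the trend or with only the lines compared, a replicate block, edgeR 4.0.16 and DESeq2 1.42.0 on recovered reads, and leaving out each library. Leaving out both libraries numbered 1 of MYC WT and SWP was chosen after seeing the data. Fits were also run on simulated counts with independent libraries and no replicate effect, unlike these data, so no result here rests on that check.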

Additional observations from a re-analysis of the deposited data

How the results depend on the processing

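With no fold threshold, limma passed 8021 genes in MYC MUT against MYC WT, 2083 in SWP against MYC WT and 7944 between the edited lines, including 3, 0 and 2 of the 9 helicases. Beyond a log2 fold change of 1, 1648, 505 and 1723 genes and 0 helicases were called. Between the edited lines the 1 helicase called became 0 with equal totals and with equal upper quartiles, where ATRX was just under the threshold. Leaving out 1 library gave 0 to 1 helicases called in MYC MUT against MYC WT (ATRX without MYC WT replicate 3, PIF1 without MYC MUT replicate 2), 0 in SWP against MYC WT and 0 to 1 between the edited lines. Without both libraries numbered 1 the helicase called there was BRIP1 (0.50) and no longer ATRX (-0.44). Among the R-loop genes, 1 to 2 were called lower in MYC MUT when 1 library was left out, and 2 without both libraries numbered 1. Among the partner genes, 2 were called higher with equal totals and 0 to 1 when 1 library was left out. The cause of these changes was not tested. Equal totals moved the share of higher calls in MYC MUT against MYC WT from 52.8% to 64.2%. For members' fold changes against MYC WT, 375 of 378 alternative values kept the same call and stayed within 1 SE where their sign differed. Between the edited lines 181 did so, 6 lost the call and 2 gained it. A move across the adjusted p alone was not counted as a change.

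The replicate block gave 4970 calls in MYC MUT against MYC WT, 1464 in SWP against MYC WT and 4773 between the edited lines, beside 4476, 1072 and 4309 without it, and 0, 0 and 1 helicases, and so changed no call of a member, although 5 helicases instead of 3 had an adjusted p under 0.05 in MYC MUT against MYC WT. MYC WT and MYC MUT were not read as paired, since same-numbered libraries correlated at 0.328, 0.146 and 0.049, and MYC WT replicate 3 correlated best with MYC MUT replicate 2 (0.154). The lowest count of a member in a library was 568 reads, for PIF1. What depth contributes to the results was not tested, and 3 libraries per line limit the estimate of the spread.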

Other observations

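Subunits of the RNase H2 complex, which removes RNA from hybrids, did not move together in MYC MUT against MYC WT. RNASEH2A, the catalytic subunit, was 0.42 higher on the log2 scale (limma adjusted p = 0.0105) with 342, 346 and 399 normalized counts in MYC WT and 504, 516 and 433 in MYC MUT, and RNASEH2B was at -0.23 (adjusted p = 0.0145), beside the call of RNASEH2C. In SWP the first 2 were at 0.04 (adjusted p = 0.861) and 0.05 (adjusted p = 0.713). In MYC MUT against MYC WT, the 70 tested genes within 5 Mb of RNASEH2B had a median of -0.30, and 57.1% of them were below it. The medians near RNASEH2A and RNASEH2C were 0.15 and 0.13. What these regional values contribute was not tested.

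Among partner genes, TOP3A was at 0.44 (limma adjusted p = 0.000731) and RPA1, the large subunit of the single-strand binding protein RPA, at 0.30 (adjusted p = 0.00622) in MYC MUT against MYC WT. BRCA1, the partner of BRIP1, was at -0.36 in SWP (adjusted p = 0.00662) and -0.06 in MYC MUT (adjusted p = 0.545), and its libraries did not overlap between SWP and either other line. These genes passed the adjusted p without passing the fold threshold, and they were chosen after their values were seen. In MYC MUT against MYC WT, tested genes within 5 Mb had a median of 0.12 near TOP3A and 0.23 near RPA1. Near BRCA1 the median in SWP against MYC WT was -0.23, with a lower quartile of -0.37. What these regional values contribute was not tested.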
